A study of Mus musculus with 11 samples.

Results

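The CXC chemokines are small secreted proteins that steer leukocytes and neural cells through G protein-coupled receptors. Their name comes from a pair of cysteines separated by another residue. The neutrophil-attracting ligands act mainly on CXCR2, the interferon-induced ligands act on CXCR3, and CXCL12 acts on CXCR4, the receptor that holds many cell types in their niches. In the brain, microglia, astrocytes, endothelial cells and meningeal cells all make members of the family, and several of them rise rapidly when macrophages are activated.

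The genes followed here were 8 ligands and a receptor, namely Cxcl1, Cxcl2, Cxcl9, Cxcl10, Cxcl12, Cxcl13, Cxcl14, Cxcl16 and Cxcr4. They were chosen by name and found through the RefSeq accessions of the array probes. All 9 were among the 23283 genes with a symbol on the array, and all 9 were among the 19565 genes that passed the filter on dim probes. Each of them had a probe well above background on every one of the 11 arrays, so no value below is a bound unless stated.

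The arrays measured RNA of mouse microglia in 4 groups of C57BL/6N origin. A_FACS (n = 2) was microglia of adult females, 12 to 24 weeks old, and NB_FACS (n = 3) was microglia of newborns of both sexes at postnatal day 1 to 3. Both were sorted as CX3CR1-high cells with intermediate CD45 and lysed without culture. By the study's methods, the brains of all 4 groups were digested with trypsin. NB_Control (n = 3) was newborn microglia shaken off mixed glia flasks and kept for 1 day in DMEM/F12 with 10% serum, and NB_Stim (n = 3) was the same with 100 ng/mL each of hTGF-β1, hIL-34 and hCX3CL1. Each flask pooled 2 to 3 newborn brains and had been fed L-929 conditioned medium, a source of macrophage colony-stimulating factor. The study's methods place the shaking weeks after the brains were taken, with the mixed glia kept in serum until then. Both cultured groups shared these exposures, and the 1 day counts from shaking only. Sorting and culture cannot be told apart from the way of isolation or from the time since the brain was taken. By the study's methods, adults were killed with CO2 and perfused, and their brains were pressed through a strainer. Newborns were decapitated, with no perfusion described, and their brains were dissociated by pipette. Age cannot be told apart from sex or from these differences in handling among the sorted cells. In bulk RNA, fewer cells of a type and less RNA per cell cannot be told apart either.

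Values are quantile normalised log2 intensities, and a gene was called when its adjusted p (limma, Benjamini-Hochberg over all genes) was below 0.05. Levels of different genes come from different probes and were not ranked against each other. Slide 1 held 8 arrays and slide 2 held replicate 3 of each newborn group. Over all genes, replicates 1 and 2 of a cultured group differed by a mean of 0.172 in NB_Control and 0.19 in NB_Stim, whereas either differed from replicate 3 by 0.406 to 0.499. Between 66.8% and 80.5% of probes were well above background on an array. Of the 9 microglia marker genes measured, all were well above background on every array, and their mean level per array was 12.8 to 13.03 in A_FACS, 11.49 to 11.72 in NB_FACS, 8.2 to 8.74 in NB_Control and 10.2 to 10.3 in NB_Stim.

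Before the values, the probes behind Cxcl12 and Cxcl14 are shown, because each gene had 3 probes designed to different transcripts and these did not behave alike. The other 7 genes had 1 probe each. No probe of the 9 genes shared a run of 20 bases with a probe of another gene on the array, on either strand.
Cxcl12 probe, transcript NM_021704.3: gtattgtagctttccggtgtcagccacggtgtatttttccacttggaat
Cxcl12 probe, transcript NM_013655.4: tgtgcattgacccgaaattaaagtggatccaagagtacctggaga
Cxcl12 probe, transcript NM_001012477.2: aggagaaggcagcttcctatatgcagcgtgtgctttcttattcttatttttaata
Cxcl14 probe, transcript XM_006517308.1: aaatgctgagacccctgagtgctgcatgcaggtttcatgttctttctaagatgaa
Cxcl14 probe, transcript NM_019568.2: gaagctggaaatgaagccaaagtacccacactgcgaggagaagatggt
Cxcl14 probe, transcript XM_006517307.1: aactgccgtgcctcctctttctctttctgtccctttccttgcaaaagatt

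The upstream sequences of Cxcl1, Cxcl2 and Cxcl10 are shown because these 3 genes all had their highest group mean in NB_FACS and all held the kappaB consensus. The sequences are from RefSeq (GRCm38.p6) and read 5′ to 3′ toward the start site on the gene's own strand. Capitals mark the kappaB consensus, matched by its name on both strands, and in Cxcl10 also the letters GAAANNGAA of the paired interferon response element. The Cxcl1 stretch is chr5:90891125-90891244 on the plus strand, the Cxcl2 stretch chr5:90903779-90903898 on the plus strand, and the Cxcl10 stretch chr5:92348890-92349139 on the minus strand.
Cxcl1 upstream: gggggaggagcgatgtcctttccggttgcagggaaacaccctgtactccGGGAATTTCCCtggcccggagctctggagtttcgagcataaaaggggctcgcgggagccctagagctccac
Cxcl2 upstream: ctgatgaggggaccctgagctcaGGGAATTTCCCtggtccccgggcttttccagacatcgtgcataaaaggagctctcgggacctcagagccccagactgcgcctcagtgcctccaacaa
Cxcl10 upstream: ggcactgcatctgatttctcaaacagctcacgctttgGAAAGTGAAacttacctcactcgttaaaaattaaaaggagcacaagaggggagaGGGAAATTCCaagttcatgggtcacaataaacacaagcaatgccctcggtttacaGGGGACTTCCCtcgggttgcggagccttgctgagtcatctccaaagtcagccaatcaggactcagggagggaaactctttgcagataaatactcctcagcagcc

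Of the 8 genes with an entry in the promoter table (Cxcl16 had none), Cxcl1, Cxcl2 and Cxcl10 held the kappaB consensus within the 300 bases around the start site, and Cxcl9, Cxcl12, Cxcl13, Cxcl14 and Cxcr4 did not. Over all 32841 promoters of that length, 8.46% held it. In Cxcl1 and Cxcl2 the same 11 letters gave a pair of overlapping matches, which began at -71 and -70 in Cxcl1 and at -97 and -96 in Cxcl2. Cxcl10 had 3 matches, beginning at -159, -104 and -103. The letters GAAANNGAA stood in Cxcl9, Cxcl10 and Cxcl14 and in 8.56% of all promoters, and TTCNNNGAA, the letters of the interferon-gamma activated site, in Cxcl14 alone of the 8 and in 8.3% of all promoters. These are matches of letters and were not tested for binding. The stretches shown were picked by level and motif together, and a link between the motif and the levels was not tested.

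Across the 4 groups, 7 of the 9 genes passed the F test over all groups, against 48.8% of all genes tested. The exceptions were Cxcl9 (adjusted p = 0.761) and Cxcl13 (adjusted p = 0.275). The 9 genes fell into different patterns. Cxcl2 and Cxcl10 were high in sorted newborn cells and low in culture, Cxcl14, Cxcl16 and Cxcr4 were higher in culture than in sorted cells, Cxcl1 was high in NB_FACS and NB_Control, and Cxcl12 was highest in A_FACS.

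**Figure D1:**
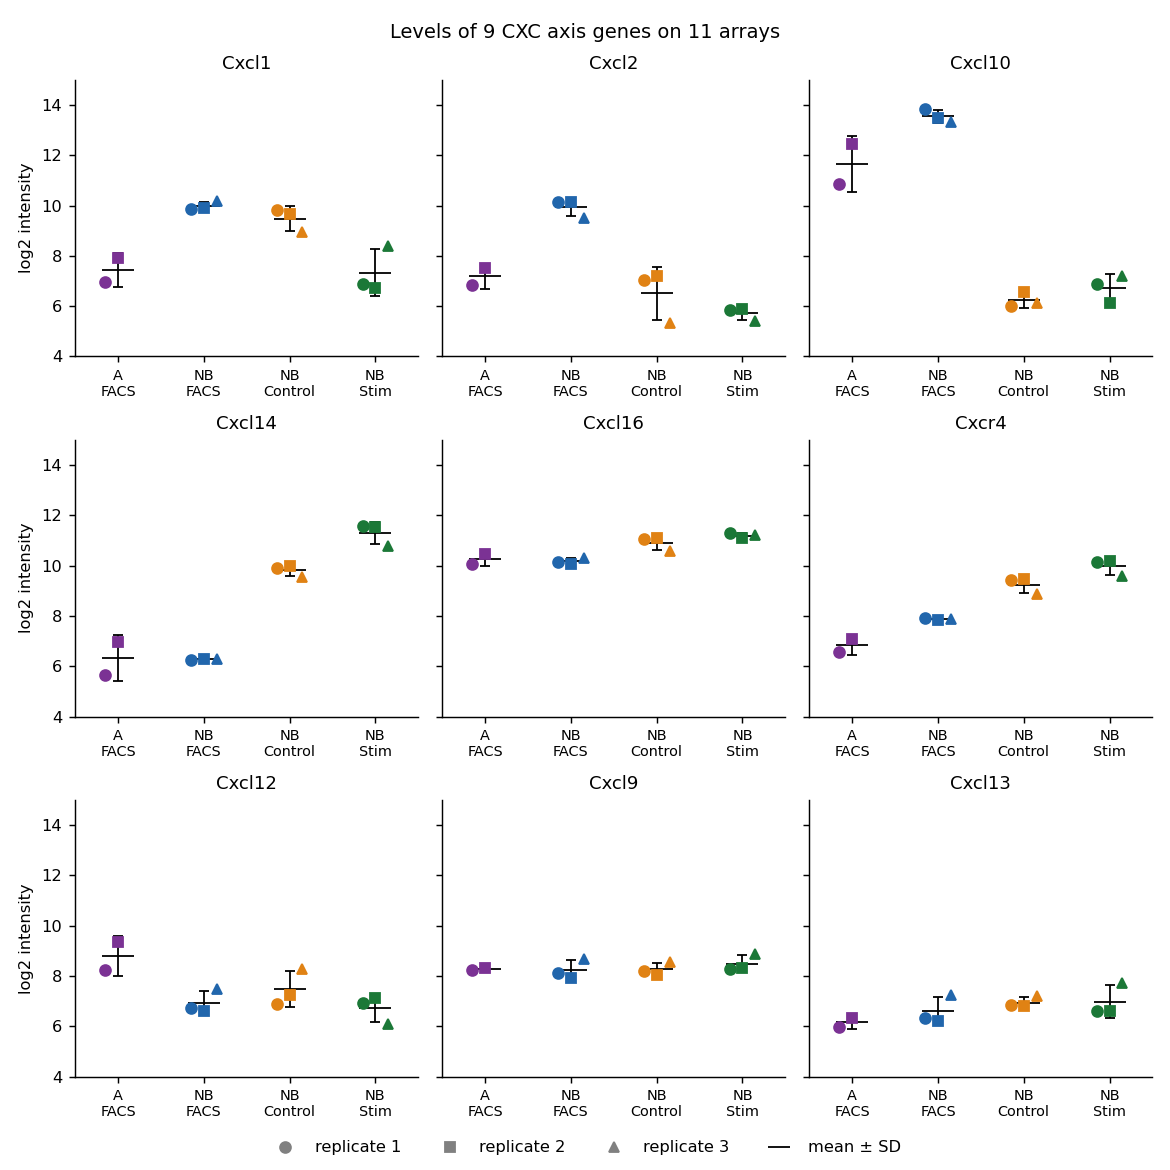
Quantile normalised log2 intensity (vertical axis) of the 9 genes on each of the 11 arrays, by group (horizontal axis). Points are arrays, with the replicate number given by the symbol, and bars are mean ± SD. The 3 NB_FACS arrays lie between 13.32 and 13.84 for Cxcl10 and all cultured arrays between 6.01 and 7.21, while Cxcl14 runs the other way.

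The first comparison asked how cultured newborn microglia differed from newborn microglia taken directly from the brain. In NB_Control 5 of the 9 genes were called against NB_FACS, where 29.7% of all genes were called. Cxcl14, Cxcl16 and Cxcr4 rose and Cxcl2 and Cxcl10 fell. The median difference over the 9 genes was 0.34, and over all genes it was 0.0865. The arrays of the 2 groups did not overlap in 6 of the 9 genes and in 44.2% of all genes. NB_Stim against the same NB_FACS arrays gave 6 calls, where 31.1% of all genes were called, with Cxcl1 as the additional gene that fell. There 6 of the 9 genes and 43.5% of all genes did not overlap.

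Cxcl10, an interferon-inducible ligand of CXCR3, gave the largest difference of the 9 genes. Its level was 13.84, 13.49 and 13.32 on the NB_FACS arrays and 6.01, 6.58 and 6.13 on the NB_Control arrays. The groups were far apart, and the lowest NB_FACS array was above the highest cultured array by more than the spread of any group. The difference was -7.31 ± 0.399 (SE) on the log2 scale, a 159-fold lower intensity (adjusted p = 2.01e-06), and it was -7.37 on slide 1 and -7.19 on slide 2. NB_Stim, at 6.86, 6.13 and 7.21, lay in the same low range, and its difference from NB_Control was 0.5 with a 95% interval from -0.4 to 1.39 (adjusted p = 0.664). The added cytokines therefore went with no called difference in Cxcl10, and the values on the stimulated arrays overlapped those without cytokines. A_FACS lay between, at 10.85 and 12.43.

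Cxcl2, a neutrophil attractant that acts through CXCR2, was also lower in culture. It measured 10.14, 10.14 and 9.51 in NB_FACS, 7.02, 7.18 and 5.31 in NB_Control, and 5.86, 5.87 and 5.4 in NB_Stim. No cultured array reached the sorted newborn arrays, and replicate 3 of NB_Control was the lowest array of all. The difference of NB_Control from NB_FACS was -3.43 ± 0.451 (adjusted p = 0.000343), a 10.7-fold lower intensity, and that of NB_Stim was -4.22 (adjusted p = 9.81e-05).

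Cxcl1, the close relative of Cxcl2 with the same receptor, did not follow it in NB_Control. Its levels were 9.87, 9.92 and 10.17 in NB_FACS and 9.83, 9.68 and 8.93 in NB_Control. The 2 groups came close to each other without overlap, and their difference was -0.51 ± 0.445 (95% interval -1.5 to 0.49, adjusted p = 0.449). In NB_Stim it measured 6.86, 6.73 and 8.41, below every array of both other newborn groups, and against NB_FACS it fell by 2.66 on the log2 scale (adjusted p = 0.00143). The probes of Cxcl1 and Cxcl2 shared no run longer than 5 bases.

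Cxcl14, a chemokine expressed by many epithelial and stromal cells and for which no single receptor is settled, moved in the opposite direction to Cxcl10. The NB_FACS arrays lay at 6.26, 6.29 and 6.27 and the NB_Control arrays at 9.89, 9.99 and 9.55. The closeness in NB_FACS is that of the mean over its probes, whose own SDs there were 0.0688, 0.294 and 0.311. All cultured arrays were above all sorted arrays, adult ones included. The difference between NB_Control and NB_FACS was 3.54 ± 0.324, an 11.6-fold higher intensity (adjusted p = 3.86e-05), and that of NB_Stim was 5.02 ± 0.324 (adjusted p = 4.73e-06), a 32.5-fold higher intensity.

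Cxcr4, the receptor of CXCL12, was also higher in culture. It measured 7.91, 7.85 and 7.89 in NB_FACS, 9.41, 9.45 and 8.86 in NB_Control, and 10.14, 10.18 and 9.59 in NB_Stim. The 3 groups did not overlap. The difference of NB_Control from NB_FACS was 1.36 ± 0.224 (adjusted p = 0.00131), and that of NB_Stim from NB_FACS was 2.09 ± 0.224 (adjusted p = 9.94e-05). Cxcl16, a membrane-anchored chemokine that is shed by ADAM10 and binds CXCR6, was bright in every group and changed less. Its levels of 10.14, 10.05 and 10.32 in NB_FACS stood below 11.07, 11.09 and 10.58 in NB_Control, a difference of 0.75 ± 0.179 (adjusted p = 0.0103). On slide 2 alone this difference was 0.26, against 0.99 on slide 1, and with cultured replicates 1 and 2 averaged to 1 it was 0.66 (adjusted p = 0.0686). In NB_Stim Cxcl16 lay at 11.28, 11.08 and 11.21 and differed from NB_FACS by 1.03 (adjusted p = 0.00181).

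**Figure D2:**
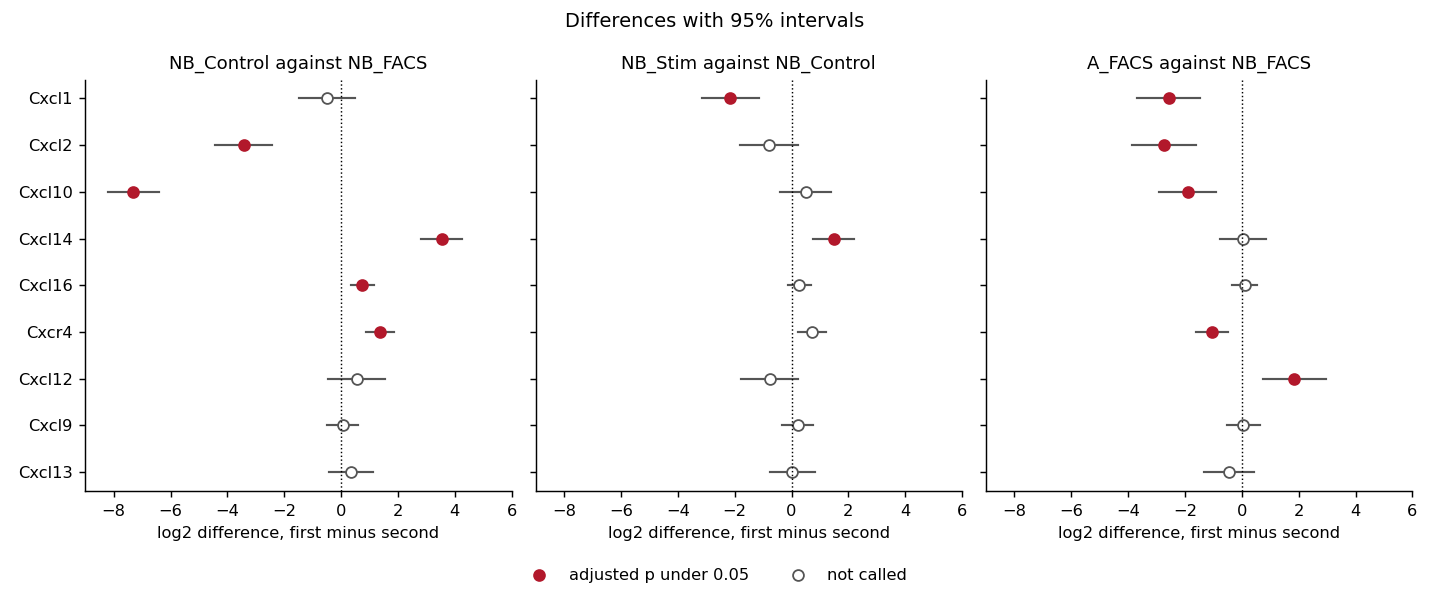
Log2 difference (horizontal axis) of each of the 9 genes (vertical axis) in 3 comparisons, with its 95% interval from the fit, where filled points are called at adjusted p under 0.05. Cxcl10 at -7.31 and Cxcl14 at 3.54 stand at opposite ends in NB_Control against NB_FACS, and the intervals of Cxcl9 and Cxcl13 contain 0 in all 3 comparisons.

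The second comparison asked what the 3 cytokines changed within culture. In NB_Stim against NB_Control 2 of the 9 genes were called, Cxcl14 as higher and Cxcl1 as lower, where 3.4% of all genes were called. The median difference over the 9 genes was 0.22, and over all genes it was -0.000761. The arrays of the 2 groups did not overlap in 3 of the 9 genes, near the 24% of all genes. Both calls lay close to the threshold.

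Cxcl1 fell by 2.15 on the log2 scale (SE 0.445, adjusted p = 0.0304), a 4.43-fold lower intensity. The difference was -2.96 on slide 1 and -0.52 on slide 2, which holds NB_Stim replicate 3, the highest stimulated array. The call was lost without NB_FACS replicate 2 (adjusted p = 0.0578), NB_Control replicate 1 (0.116) or 2 (0.113), or NB_Stim replicate 1 (0.126) or 2 (0.124), with differences from -2.15 to -1.84. It was lost as well when only the 2 groups entered the fit (adjusted p = 0.0994).

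Cxcl14 rose further with cytokines, from 9.89, 9.99 and 9.55 to 11.58, 11.54 and 10.77, with no overlap. The difference was 1.49 ± 0.324, a 2.8-fold higher intensity (adjusted p = 0.038), and it was 1.62 on slide 1 and 1.22 on slide 2. Leaving out any single NB_FACS, NB_Control or NB_Stim array except NB_Stim replicate 3 gave differences of 1.34 to 1.58 and adjusted p-values of 0.054 to 0.15, so the size was stable and the call was not.

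Cxcr4 was also higher on every stimulated array than on every unstimulated array, by 0.73 ± 0.224, without reaching the threshold (adjusted p = 0.132). Such a lack of overlap was found in 24% of all genes. With the replicate number as a block the same difference was called (adjusted p = 0.0443), as it was with slide as a block (adjusted p = 0.0372), and it was 0.73 on each slide. The replicate block raised the number of genes called in this comparison from 666 to 1166 of 19565, and the slide block raised it to 1474. Cxcl2 differed by -0.79 (adjusted p = 0.487), and without NB_Control replicate 3, its lowest array, by -1.39 (adjusted p = 0.0364). Cxcl16 differed by 0.28, with a 95% interval of -0.12 to 0.68 (adjusted p = 0.549).

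The third comparison asked how adult and newborn microglia differed before any culture. In A_FACS against NB_FACS 5 of the 9 genes were called, where 22.7% of all genes were called. Cxcl1, Cxcl2, Cxcl10 and Cxcr4 were lower in the adult cells and Cxcl12 was higher. The median difference was -0.45, and over all genes it was -0.00874. The arrays did not overlap in 5 of the 9 genes and in 51.2% of all genes.

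Cxcl1 measured 6.94 and 7.9 in A_FACS, below all NB_FACS arrays, and fell by 2.57 on the log2 scale (SE 0.497, adjusted p = 0.00526). Cxcl2, at 6.84 and 7.52, fell by 2.75 (adjusted p = 0.00397), a 6.73-fold lower intensity. Cxcl10, at 10.85 and 12.43, fell by 1.91 (adjusted p = 0.0131). Cxcr4, at 6.56 and 7.09, fell by 1.06 (adjusted p = 0.014). Each of the 4 genes was lower on A_FACS replicate 1 than on replicate 2. Without that array, which left 1 adult array assumed to vary like the other groups, the differences were -2.09 for Cxcl1 (adjusted p = 0.0595), -1.12 for Cxcl10 (0.116) and -0.79 for Cxcr4 (0.131), and the call for Cxcl2 held.

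Against the cultured groups, A_FACS gave 5 calls against NB_Control, where 40.8% of all genes were called, and 6 against NB_Stim, where 40.2% were called. Without overlap were 6 of the 9 genes against NB_Control and 7 against NB_Stim, where 66.4% and 63% of all genes did not overlap. Cxcl10 was higher in the adult cells, by 5.4 over NB_Control and 4.9 over NB_Stim. Cxcl14 was lower, with differences of -3.49 and -4.97, as was Cxcr4 with -2.42 and -3.15, all with adjusted p-values of 6.79e-05 or smaller. Cxcl14 did not separate the sorted groups, with 5.67 and 6.98 in A_FACS and a difference of 0.05 from NB_FACS (95% interval -0.76 to 0.86, adjusted p = 0.943). Cxcl16 was lower than in NB_Control (difference -0.64, adjusted p = 0.0274), a call lost without A_FACS replicate 1 (-0.43, adjusted p = 0.227) or without NB_Control replicate 1 (0.0856) or 2 (0.0866). Against NB_Stim its difference was -0.92 (adjusted p = 0.00498), and -0.71 without A_FACS replicate 1 (adjusted p = 0.0593). Cxcl2 was higher than in NB_Stim by 1.47 (adjusted p = 0.0417), and this call was lost without either A_FACS array, without NB_FACS replicate 1 or 2, or without any one NB_Stim array, with differences of 1.13 to 1.81 and adjusted p-values of 0.0537 to 0.219. Cxcl1 was lower than in NB_Control (difference -2.06, adjusted p = 0.00836), with a difference of -1.58 without A_FACS replicate 1 (adjusted p = 0.0936).

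Cxcl12, the ligand of CXCR4 and ACKR3, was the gene whose probes gave called differences of opposite sign. Averaged over its 3 probes it measured 8.23 and 9.35 in A_FACS, 6.74, 6.6 and 7.49 in NB_FACS, 6.9, 7.26 and 8.29 in NB_Control and 6.91, 7.14 and 6.11 in NB_Stim. The adult arrays were above the NB_FACS arrays by 1.84 ± 0.496 (adjusted p = 0.0247) and above the NB_Stim arrays by 2.07 (adjusted p = 0.0084). Their difference from NB_Control was 1.3 (adjusted p = 0.0604). Without A_FACS replicate 2 the first was 1.28 (adjusted p = 0.185) and the second 1.51 (adjusted p = 0.082). The first call was also lost without NB_FACS replicate 1 (0.0629) or 2 (0.0735), and both were lost when only probes well above background on all 11 arrays were averaged (1.29, adjusted p = 0.11, and 1.12, adjusted p = 0.116). The difference from NB_Control was called with slide as a block (1.43, adjusted p = 0.0432), with the brightest probe (3.28, adjusted p = 0.000612), and without A_FACS replicate 1 (1.87, adjusted p = 0.0468), NB_Control replicate 3 (1.71, 0.0195) or NB_Stim replicate 3 (1.3, 0.0489).

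The single probes were then tested over all 44738 probes that passed the filter, an alternative added after their disagreement had been seen. The probe to NM_001012477.2 measured 11.32 and 12.27 in A_FACS and 8.28, 8.26 and 9.49 in NB_FACS, a difference of 3.12 (adjusted p = 0.00238, with 19.3% of all probes called). The probe to NM_013655.4 gave 7.34 and 8.14 against 5.1, 4.49 and 4.78, a difference of 2.95 (adjusted p = 0.00401). The NM_021704.3 probe was not higher in the adult cells, at 6.02 and 7.64 against 6.84, 7.06 and 8.21, a difference of -0.55 (adjusted p = 0.613).

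The NM_021704.3 probe separated the cultured arrays instead. It measured 8.84, 9.06 and 10.74 in NB_Control and 8.7, 8.88 and 8.58 in NB_Stim, above every sorted array. Its difference between NB_Control and NB_FACS was 2.18 (adjusted p = 0.0194, with 25.6% of all probes called), while the other two probes gave -0.4 and -0.16 (adjusted p = 0.596 and 0.84). Between NB_Stim and NB_FACS it gave 1.35 (adjusted p = 0.116, with 26.6% of all probes called). Between A_FACS and NB_Control it gave -2.72 (adjusted p = 0.00848), where the NM_013655.4 probe gave 3.36 and the NM_001012477.2 probe 3.28 (adjusted p = 0.000886 and 0.000758, with 36.6% of all probes called). The same opposition held between A_FACS and NB_Stim, with -1.9 for the NM_021704.3 probe and 3.97 and 4.13 for the others (adjusted p = 0.0426, 0.00037 and 0.000225), and again 36.6% of all probes were called. The gene mean therefore joined probes whose group differences had opposite signs. The NM_013655.4 probe was well above background on 2 of the 3 NB_Control arrays and on every array of the other groups.

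The Cxcl14 probes agreed in direction between culture and sorted newborn cells but not in size. From NB_FACS to NB_Control the XM_006517308.1 probe went from 5.92, 5.78 and 5.85 to 12.03, 12.15 and 11.41, a difference of 6.02 (adjusted p = 1.79e-05). The NM_019568.2 probe differed by 4.26 (adjusted p = 0.000139), and the XM_006517307.1 probe by 0.33 (adjusted p = 0.21). With cytokines the 3 probes differed from NB_Control by 1.36 (adjusted p = 0.204), 2.11 (0.0469) and 0.98 (0.0192) in the same order, with 2.49% of all probes called. The XM_006517307.1 probe thus carried little of the culture difference, and in the other 2 probes the sorted arrays were far below the cultured ones.

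**Figure D3:**
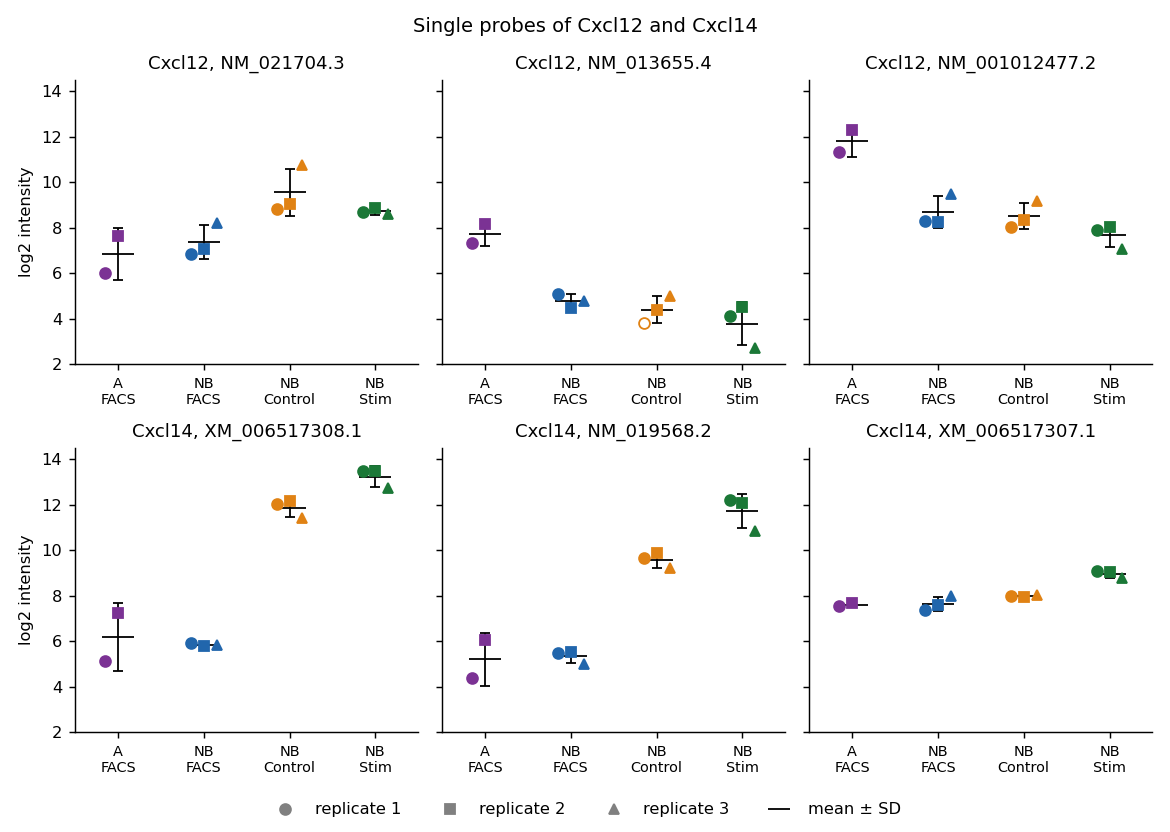
Log2 intensity (vertical axis) of the 3 Cxcl12 probes (top) and the 3 Cxcl14 probes (bottom), titled by transcript, on each array by group (horizontal axis), with open symbols for spots not well above background and bars for mean ± SD. The NM_021704.3 probe of Cxcl12 is above 8.5 on all cultured arrays, and the other two probes are highest on the A_FACS arrays.

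Cxcl9, an interferon-gamma-induced ligand of CXCR3, and Cxcl13, a B cell attractant, were called in none of the 6 comparisons when all 11 arrays were fitted without a block. In that fit 0 of 12 tests had an unadjusted p under 0.05, and Tukey's test gave 0 calls. Cxcl9 ranged from 7.93 to 8.89 over all 11 arrays, and Cxcl13 from 5.98 to 7.73. Within each newborn group both were highest on replicate 3, the array of slide 2. The 95% interval of the difference between NB_Control and NB_FACS was -0.49 to 0.58 for Cxcl9 and -0.44 to 1.12 for Cxcl13. For Cxcl13 the A_FACS arrays, at 5.98 and 6.33, differed from NB_Control by -0.79 (adjusted p = 0.135), a difference that was called with slide as a block (-0.51, adjusted p = 0.0479) and with only the 2 groups in the fit (-0.79, adjusted p = 0.0298). Their difference from NB_Stim, -0.82 (adjusted p = 0.12), was called with slide as a block (-0.55, adjusted p = 0.0377).

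The order of the group means was NB_FACS, NB_Control, A_FACS and NB_Stim for Cxcl1, with no called difference inside the first or the last pair. For Cxcl2 it was NB_FACS, A_FACS, NB_Control and NB_Stim, and neither pair of neighbours among the last 3 groups was called. For Cxcl10 the order was NB_FACS, A_FACS, NB_Stim and NB_Control, and only the last pair was not called. Cxcl14 and Cxcl16 ran NB_Stim, NB_Control, A_FACS and NB_FACS, with no called difference between the sorted groups and, for Cxcl16, none between the cultured groups. Cxcr4 ran NB_Stim, NB_Control, NB_FACS and A_FACS, and its cultured pair was the only pair of neighbours not called.

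Over the 11 arrays, Cxcl14 varied with Cxcl16 (Pearson r = 0.953) and with Cxcr4 (r = 0.949), and against Cxcl10 (r = -0.905). Cxcl10 and Cxcl2 gave r = 0.862, and Cxcl1 and Cxcl2 r = 0.642. These are descriptions over arrays that fall into 4 groups and share the split between sorted and cultured cells. Among all genes tested, those closest in pattern to Cxcl10 were the haemoglobin genes Hba-a2 (r = 0.994) and Hbb-bt (r = 0.988). The closest to Cxcr4 were Gys1 (0.994) and Ppdpf (0.992), to Cxcl14 Wipi1 (0.989) and 6030443J06Rik (0.988), to Cxcl2 C2cd5 (0.992), and to Cxcl16 Serpina3b (0.977) and Akap11 (0.976). Cxcl1 was closest to Palb2 (0.949) and Slfn2 (0.939), Cxcl12 to Gal3st4 (0.89) and Cyp2d37-ps (0.881), Cxcl9 to Zfp956 (0.988) and Gm33570 (0.969), and Cxcl13 to Rnf224 (0.983) and Olfr203 (0.98).

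The remaining CXC ligands and receptors of the array were read as a list of 14 genes, of which 13 were matched and tested. In NB_Control against NB_FACS 3 of the 13 rose and 2 fell, where 15.8% of all genes rose and 13.9% fell. In NB_Stim against NB_Control 0 rose and 2 fell (1.4% and 2% of all genes), and in A_FACS against NB_FACS 0 rose and 2 fell (9.75% and 12.9%). Apart from the 2 that fell with cytokines, these shares were near those of all genes. Cxcl5, another CXCR2 ligand, measured 8.81, 8.63 and 8.82 in NB_Control and was not well above background on any NB_FACS or A_FACS array. It was at least 37.6-fold higher in NB_Control than in NB_FACS (adjusted p = 9.14e-05), a bound against the lowest signal well above background on those arrays. Cxcl5 passed the filter on dim probes only through NB_Control, where it was high, so its p-values against NB_Control are not independent of the filter. With cytokines it was 2.37, 2.61 and 6.14, well above background on replicate 3 only, and the difference from NB_Control was -5.05 (adjusted p = 0.0081). Cxcl5 and Cxcl1 thus shared a low level on stimulated replicates 1 and 2 and a higher level on replicate 3.

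Cxcl3, a further neutrophil attractant, had the group order of Cxcl1, with NB_FACS highest, then NB_Control, A_FACS and NB_Stim. It was 6.93, 6.81 and 6.5 in NB_FACS and 4.67, 4.83 and 4.27 in NB_Control. Against NB_Control it fell by 1.26 in NB_Stim (adjusted p = 0.0203), where 1 of 3 arrays was well above background, and against NB_FACS by 3.27 in A_FACS (adjusted p = 5.67e-05), where 1 of 2 was. In A_FACS it was also lower than in NB_Control (difference -1.12, adjusted p = 0.00772), where Cxcl2 was not called (0.68, adjusted p = 0.316). The platelet chemokine Pf4, also a gene of border macrophages, went from 9.83, 10.22 and 11.2 in NB_FACS to 15.7, 15.82 and 13.87 in NB_Control, a difference of 4.71 (adjusted p = 0.000825). It was 4.96 and 7.47 in A_FACS, lower than in NB_FACS (difference -4.2, adjusted p = 0.0049). Ppbp, its neighbour in the platelet pair, was well above background on 1 of 3 NB_FACS arrays and reached 9.04, 9.5 and 5.45 in NB_Control (difference 6.02, adjusted p = 0.00123). It passed the filter on dim probes only through the cultured groups, where it was high.

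**Figure D4:**
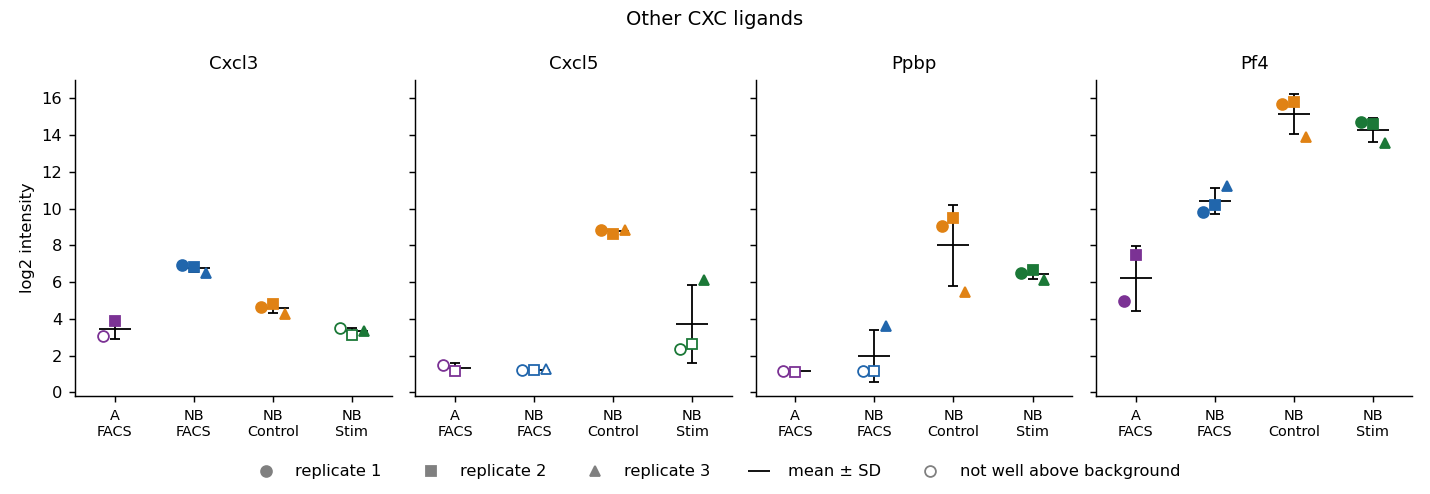
Log2 intensity (vertical axis) of Cxcl3, Cxcl5, Ppbp and Pf4 on each array by group (horizontal axis), with open symbols where the gene was not well above background and bars for mean ± SD. Cxcl5 is above 8 only on the 3 NB_Control arrays, and Pf4 is above 13 on every cultured array.

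Genes that act with CXCR4 and CXCL16 were read next, 13 of 14 being tested. In NB_Control against NB_FACS 0 rose and 5 fell, with Cd74, the MIF receptor chain, at -3.23 (adjusted p = 0.00804), Jak2 at -1.73 (adjusted p = 7.46e-05) and Rgs1, a brake on chemokine receptor signalling, at -0.97 (adjusted p = 0.02). In NB_Stim against NB_Control the only call was Adam10, the sheddase of CXCL16, which rose by 0.71 ± 0.113 (adjusted p = 0.00857). In A_FACS against NB_FACS 2 rose and 2 fell. Rgs1 was higher in adult cells by 1.76 and Arrb2 by 1.02 (adjusted p = 0.00267 and 0.0186), while Mif, an alternative ligand of CXCR4, was lower (difference -1.44, adjusted p = 0.00746).

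Of 15 genes that take part in or restrain NF-kB, TNF or IL-1 signalling, 12 fell in NB_Control against NB_FACS and 0 rose. Tnfaip3 and Zfp36 are among those that restrain it. The median was -2.42, against 0.0865 for all genes. Nfkbiz differed by -5.13, Tnfaip3 by -4.13 and Tnf by -4.05 (adjusted p = 1.59e-07, 0.000116 and 1.59e-07). In NB_Stim against NB_Control limma called 0 of the 15 (4 at an unadjusted p under 0.05, 0 by Tukey's test), where 3.4% of all genes were called. At that share 0 of 15 does not show that the list was unmoved. Of all 19565 genes, 2970 had an unadjusted p under 0.05. The median of the list was -0.32, against -0.000761 for all genes. Cxcl1 and Cxcl3 were called lower there. In A_FACS against NB_FACS 3 of the 15 rose and 0 fell, where 9.75% of all genes rose and 12.9% fell. The 3 were Zfp36 at 1.97 (adjusted p = 0.0053), Rel at 1.46 (0.0165) and Rela at 0.79 (0.0144). Cxcl1, Cxcl2 and Cxcl10 were lower in the adult cells in that same comparison. The part of the listed genes in the chemokine values was not tested.

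Immediate early genes, which respond within minutes to cell handling, had a similar split. Zfp36 stands in this list as well as in the list before. All 13 tested fell in NB_Control against NB_FACS, with a median of -2.53, and 8 of 13 rose in A_FACS against NB_FACS. Their mean level per array was 14.62 to 14.98 in A_FACS, 13.21 to 13.61 in NB_FACS, 10.51 to 10.77 in NB_Control and 10.07 to 10.54 in NB_Stim. They therefore moved with Cxcl2 and Cxcl10 between culture and sorted newborn cells, and against them between the sorted groups. Their part in the chemokine values was not tested. Of 12 genes of interferon induction and signalling, 3 rose and 1 fell in NB_Control against NB_FACS, with Ifnb1 at -2.41 (adjusted p = 0.00824, well above background on 1 of 3 NB_Control arrays), Irf7 at 1.89 (0.000715) and Stat2 at 1.76 (7.81e-05). In NB_Stim against NB_Control limma called 0 of the 12 (3 at an unadjusted p under 0.05, 0 by Tukey's test), where 3.4% of all genes were called. The median of the list there was -0.07. In A_FACS against NB_FACS 4 rose and 0 fell, with Irf1 at 1.12 (adjusted p = 0.00524), Ifnar2 at 0.88 (0.0184) and Stat2 at 0.64 (0.0485), while Cxcl10 was lower in the adult cells.

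Markers of other cells moved with several of the chemokine results. The 9 endothelial markers measured had a mean per array of 8.11 to 8.79 in A_FACS, 7.1 to 7.83 in NB_FACS, 4.5 to 4.9 in NB_Control and 4.74 to 4.99 in NB_Stim. In NB_Control 5 of the 9 were well above background on every array, and in A_FACS all 9 were. Their mean was highest where the NM_013655.4 and NM_001012477.2 probes of Cxcl12 were highest, though Kdr was at 8.71 in A_FACS and 9.16 in NB_Stim, and Flt1 at 10.67 and 10.39. The mean of the 10 fibroblast and mural markers ran the other way, at 5.54 to 6.39 in A_FACS, 6.91 to 7.08 in NB_FACS, 9.28 to 9.37 in NB_Control and 8.93 to 9.6 in NB_Stim. Cxcl14 and the NM_021704.3 probe of Cxcl12 were likewise highest in culture. Within this list Col1a1, Col1a2, Col3a1, Dcn, Lum and Pdgfra had the order of the mean between sorted and cultured groups. The pericyte gene Rgs5 did not, with group means of 8.78 in A_FACS, 8.56 in NB_FACS, 2.32 in NB_Control and 2.52 in NB_Stim, nor did Pdgfrb, at 6.09, 4.4, 4.24 and 4.24. The contractile genes Tagln and Acta2 were highest in culture but also higher in A_FACS than in NB_FACS, by 2.71 and 2.15 (adjusted p = 0.000631 and 0.000725). In each newborn group 9 of these 10 were well above background on every array. Between NB_Control and NB_Stim, where Cxcl14 rose, the ranges of the fibroblast and mural means overlapped. The border macrophage list, which includes Pf4, had means of 5.34 to 6.76 in A_FACS, 8.74 to 9.78 in NB_FACS, 9.12 to 9.89 in NB_Control and 7.44 to 7.74 in NB_Stim. Its 9 genes did not move together. In NB_Control against NB_FACS 3 were called higher, among them Ms4a7 (6.66) and Pf4 (4.71). Another 3 were called lower, among them Lyve1, at least 22.6-fold lower. In NB_Stim against NB_Control the only call was Mrc1, at -5.24. Astrocyte markers were at 5.99 to 6.65 in A_FACS, 7.05 to 7.31 in NB_FACS, 7.54 to 7.93 in NB_Control and 7.61 to 8.29 in NB_Stim. Neutrophil markers were at 6.34 to 7.34 in A_FACS and 6 to 8.5 in NB_FACS, and lymphocyte markers stayed between 6 and 6.7 on all arrays. The part of these cells in the chemokine values was not tested.

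Set against the cultured groups in the other 3 comparisons, the same lists gave the following counts, with values as log2 differences of the first group from the second. In NB_Stim against NB_FACS 3 of the 13 other CXC genes rose and 3 fell, where 16% of all genes rose and 15.1% fell. Pf4 was at 3.86, Ppbp at 4.45 with 1 of 3 NB_FACS arrays well above background, and Cxcl3 at -3.41 with 1 of 3 NB_Stim arrays well above background. Of the 13 partners of CXCR4 and CXCL16, 1 rose and 4 fell, among them Cd74 at -2.92, Rgs1 at -1.3 and Jak2 at -1.28. Of the 15 NF-kB, TNF and IL-1 genes 0 rose and 14 fell, with Nfkbiz at -5.37, Tnf at -4.36 and Tnfaip3 at -4.08. Of the 12 interferon genes 4 rose and 1 fell, with Stat2 at 1.51 and Ifnb1 at -2.18, well above background on 1 of 3 NB_Stim arrays.

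In A_FACS against NB_Control all 15 NF-kB, TNF and IL-1 genes rose, led by Nfkbiz at 4.92, Tnfaip3 at 4.54 and Tnf at 4.47, and in A_FACS against NB_Stim again all 15, led by Nfkbiz at 5.15, Tnf at 4.79 and Tnfaip3 at 4.49. Cxcl10 rose in both of these comparisons, whereas Cxcl1 was lower than in NB_Control and was not called against NB_Stim. Of the 13 partners, 5 rose and 1 fell against NB_Control (Cd74 at 4.23, Rgs1 at 2.73, Mif at -2.07), and 5 rose and 2 fell against NB_Stim (Cd74 at 3.91, Rgs1 at 3.05, Mif at -2.23). Of the 12 interferon genes, 1 rose and 2 fell against NB_Control (Irf7 at -1.19, Stat2 at -1.13, Irf1 at 0.92), and 3 rose and 2 fell against NB_Stim (Irf1 at 1.68, Ifngr1 at 1.34, Stat2 at -0.87). Of the 13 other CXC genes, 2 rose and 4 fell against NB_Control (17.7% and 23.2% of all genes), where Pf4 was at -8.91 and where Cxcl5 and Ppbp were at least 45.5-fold and at least 26.9-fold lower in A_FACS. Against NB_Stim 4 rose and 3 fell (17.5% and 22.8% of all genes), with Pf4 at -8.06, Ppbp at least 9.06-fold lower in A_FACS, and Cxcr1 at 1.83, where 1 of 3 NB_Stim arrays was well above background. All list genes named for these 3 comparisons were called, with adjusted p-values of 0.0247 or smaller. Of these genes, Cxcl5, Ppbp and Cxcr1 passed the filter on dim probes only through groups where they were high. These were NB_Control for Cxcl5, the cultured groups for Ppbp and A_FACS for Cxcr1, so their p-values are not independent of the filter.

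**Figure D5:**
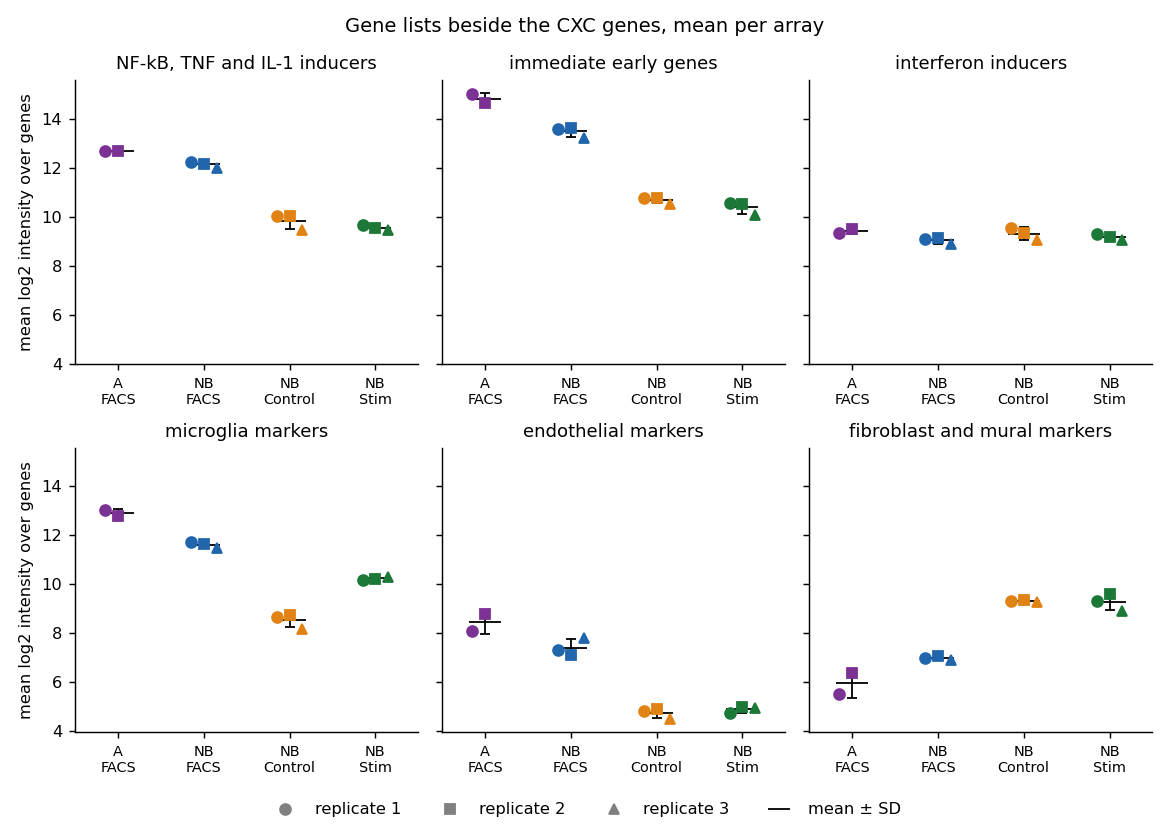
Mean log2 intensity over the genes of 6 lists (vertical axis) on each array by group (horizontal axis), with points for arrays and bars for mean ± SD. The NF-kB and immediate early lists separate sorted from cultured arrays, and the means of the endothelial and of the fibroblast and mural lists run in opposite directions across the groups.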

How the data were processed

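RNA of mouse microglia was hybridised to 11 single-colour Agilent arrays. The deposited scanner files, made by the authors' service provider with Feature Extraction 11.5.1.1, give a background-subtracted signal intensity for each of 62976 spots. The deposited series matrix holds the same intensity values, with 0 entries differing beyond a relative tolerance of 1e-05. Neither is normalised between arrays. No spot was saturated. The deposited intensity was put on the log2 scale here and quantile normalised, as the study's methods state for its own calculations. Control spots and spots with an outlier flag were left out, and spots of a probe were averaged.

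Probes entered the test if some group had all its arrays well above background, which left 44738 of 60037 distinct probes (138 had been dropped for want of an unflagged spot on some array). RefSeq accessions in the files were matched to symbols in a GRCm38.p6 list of genes (36264 probes), and kept probes were averaged per gene. Each gene was fitted in limma 3.58.1 (R 4.3.3) with 1 mean per group, and 6 pairwise comparisons were tested two-sided, with p-values adjusted by Benjamini-Hochberg within each comparison over 19565 genes. The number of arrays limits the precision. The fit was checked on simulated data. Figures were drawn with matplotlib 3.10.9.

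Replicates were fitted as separate samples of a group. Between the 3 newborn groups, the deviations of same-numbered arrays from their group means correlated at 0.112 to 0.489, over genes, in all 9 pairs. Differently numbered arrays of slide 1 correlated at 0.185 to 0.364, so numbers 1 and 2 are not told apart by this check, and number 3 coincides with slide 2 and slide with scan. The number was used as a block on this basis. Where that block changes a call, its value stands beside the result.

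The 9 genes and all gene lists were chosen with earlier results of these data known. By rule, all 9 genes are named, with the 3 largest called differences of each related list and the 2 genes nearest in pattern to each. Other settings tried were 75th percentile scaling, normexp background, other probe filters, the brightest probe, the deposited matrix, blocks for slide and replicate, averaged cultured replicates, only the groups compared, Tukey's test from the study's methods, and each array left out. Calls by Tukey's test were made here after Benjamini-Hochberg over genes, and its unadjusted p is the value before that step. Motifs in protein sequences were not analysed here. Values of some single genes that the rule for named genes would give are not reported here.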

Additional observations from a re-analysis of the deposited data

How the results depend on the processing

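The called differences of Cxcl10, Cxcl2, Cxcl14 and Cxcr4 between cultured and sorted newborn cells kept their direction and their side of the threshold under every setting tried at the gene level. Of 1188 values of single genes under other settings, 1081 kept direction and side of the threshold, 59 lost a call, 14 gained one and 34 changed sign. For NB_Stim against NB_Control the 2 calls became 1 with no filter on dim probes, with the brightest probe and with only the groups compared, 0 with replicates 1 and 2 averaged and 0 by Tukey's test (2 at its unadjusted p), and 0 to 2 when each array was left out. For A_FACS against NB_FACS the 5 calls became 0 by Tukey's test (4 at its unadjusted p) and 2 to 5 when each array was left out, and for A_FACS against NB_Control 3 by Tukey's test. Over all genes, the 666 calls in NB_Stim against NB_Control became 729 with the brightest probe and 456 with only the groups compared. They became 118 with replicates averaged, 183 by Tukey's test and 304 to 686 without any one newborn array. With no filter on dim probes they were 512 of 23283 genes. By Tukey's test the 4437 calls in A_FACS against NB_FACS became 2015, and the 7984 in A_FACS against NB_Control became 4881. The order of the 4 group means was kept by 5 to 9 of the 9 genes when each array was left out, the 5 without A_FACS replicate 2.

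Signs that changed belonged to differences that were not called, apart from the single Cxcl12 probes. Cxcl12 gave -0.16 in NB_Control against NB_FACS with the brightest probe, and 0.17 in NB_Stim against NB_FACS with probes well above background on all 11 arrays (-0.44 to 0.08 with each array left out). Cxcl14 in A_FACS against NB_FACS gave -0.08 with slide as a block and -0.6 to 0.7 with each array left out, and -0.13 and -0.04 with its NM_019568.2 and XM_006517307.1 probes alone. Cxcl16 there gave -0.02 under 75th percentile scaling and -0.11 to 0.32 with each array left out. Cxcl9 in A_FACS against NB_Control gave -0.01 under that scaling, -0.06 with averaged replicates and -0.1 to 0.14 with each array left out. With each array left out, Cxcl9 ranged from -0.11 to 0.27 in NB_Control against NB_FACS and from -0.1 to 0.27 in A_FACS against NB_FACS, and Cxcl13 from -0.34 to 0.22 in NB_Stim against NB_Control. Cxcl1 in A_FACS against NB_Stim gave -0.00432 with normexp, -0.18 with averaged replicates and -0.39 to 0.63 with each array left out. Single Cxcl12 probes gave 1.35, -0.55, -2.72 and -1.9 for NM_021704.3 in NB_Stim against NB_FACS and in A_FACS against NB_FACS, NB_Control and NB_Stim, and -0.4 and -0.16 for the other two in NB_Control against NB_FACS. The cause of these changes was not tested. The replicate block, run for the 3 comparisons among newborn groups, changed no call of the 9 genes there other than that of Cxcr4 in NB_Stim against NB_Control (0.73, adjusted p = 0.0443). The slide block also made that call, and made those of Cxcl12 and Cxcl13 in A_FACS against NB_Control and of Cxcl13 in A_FACS against NB_Stim. With 2 or 3 arrays a group, a missed threshold does not show that levels were equal.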
